A study of Mus musculus with 4 samples.

Results

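The genes described here are 10 core components of transforming growth factor beta (TGF-beta) and bone morphogenetic protein (BMP) signalling: the receptors Tgfbr1, Tgfbr2, Bmpr1a, Bmpr2 and Acvr1, and the intracellular mediators Smad1, Smad2, Smad3, Smad4 and Smad7. They were taken by gene symbol. Each was read by 1 probe set, so the 10 genes correspond to 10 of the 34760 probe sets and to 10 of the 19937 genes with a symbol of their own. No probe set shared between genes named any of them. Tgfbr1, Bmpr1a and Smad3 are among the published targets of Musashi proteins.

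The 4 arrays came from intestinal epithelium of adult C57BL/6 mice crosslinked with ultraviolet light, which joins RNA to the proteins that touch it. RNA was precipitated with an antibody to Musashi1 (Msi1), with one to an hnRNP (a heterogeneous nuclear ribonucleoprotein, the family that packages nascent transcripts in the nucleus; the labels do not say which) or with nonspecific immunoglobulin (IgG), and the input was total RNA with no antibody. Each group was a single Affymetrix Mouse Gene 1.0 ST array of RNA combined from 2 experiments, with 100 ng labelled. With 1 array per group there is no replicate error, no p-value is given, and differences are described by their size.

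TGF-beta family ligands bring together type I and type II receptors, both of which are kinases. The type II receptor activates the type I receptor, which phosphorylates receptor-activated Smads. These join the shared Smad4 and enter the nucleus, while the inhibitory Smad7 acts back on the receptors. In the gut, BMP signalling from the surrounding tissue restrains stem cells and favours differentiation, and TGF-beta limits epithelial growth. Musashi proteins bind short UAG-containing elements, mainly in the untranslated ends of mRNAs, and alter their translation or stability.

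All values are log2 signals per probe set as deposited, and 1 log2 unit is a 2-fold difference. Signal over background takes the place of depth on an array. The detection floor of each array was the level under which 95% of olfactory and vomeronasal receptor probe sets lay, which gut epithelium should not express. It stood at 4.74 on the Msi1, 5.17 on the hnRNP, 5.26 on the IgG and 4.09 on the input array. Genes above it made up 47.7%, 32.9%, 28.1% and 59.1% of all genes on these arrays. The standard deviation across probe sets was 1.38, 1.20, 1.17 and 2.01, so the deposited values do not share a common distribution. The tissue label was set against marker genes. On input, 13 of 13 epithelial markers were above the floor, as were 6 of 11 stromal and muscle, 5 of 6 immune, 0 of 4 endothelial and 0 of 5 enteric neuron and glia markers.

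All 10 genes were above the floor on the input array. The Msi1 array had 7 of them above its floor (Tgfbr1, Bmpr1a, Bmpr2, Smad1, Smad3, Smad4 and Smad7), the hnRNP array 3 (Smad1, Smad3 and Smad7) and the IgG array 2 (Smad3 and Smad7). Tgfbr2, Acvr1 and Smad2 were below the floor on all 3 precipitates. These are bulk signals, in which fewer cells of a type and less RNA per cell cannot be told apart. A value below its floor is open to background, so a fold against it is given as a lower bound, computed against the floor.

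**Figure D1:**
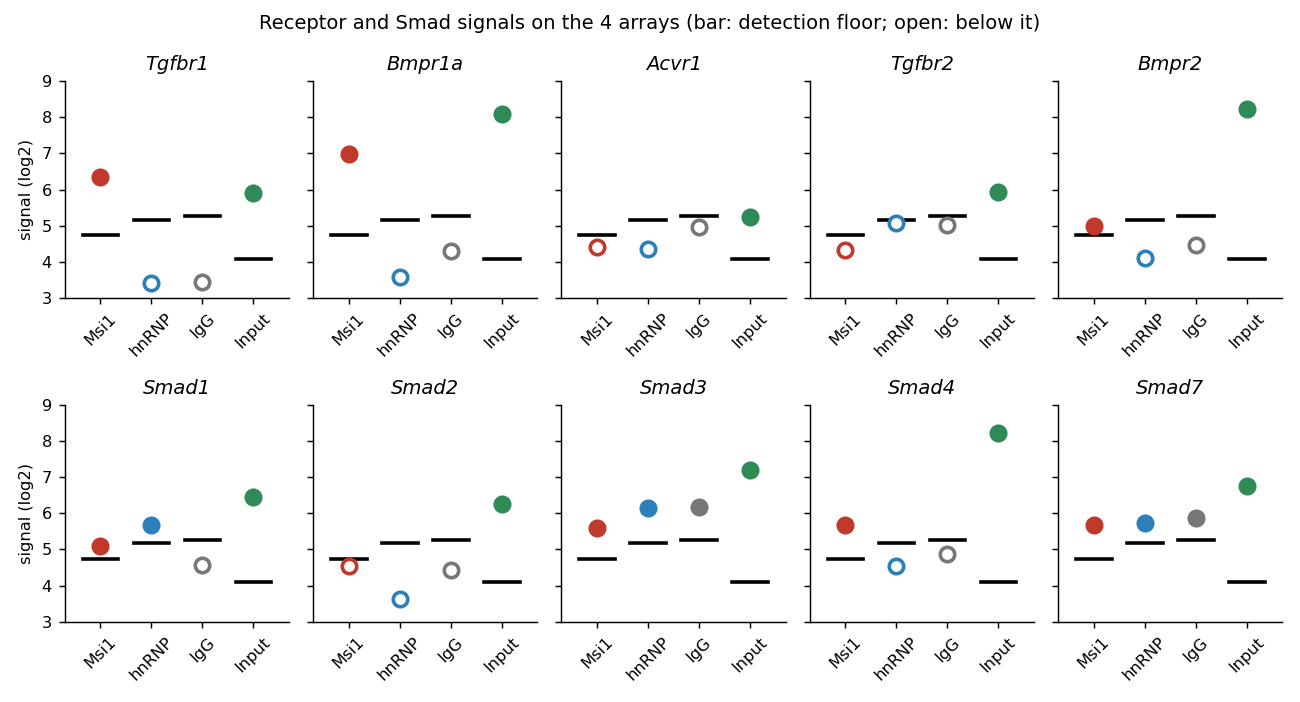
Log2 signal (vertical axis) of each receptor and Smad gene on the Msi1, hnRNP, IgG and input arrays, 1 array each, so points carry no error bars. Black bars mark each array's detection floor and open points lie below it. Tgfbr1 and Bmpr1a stand at 6.36 and 6.99 on the Msi1 array and are open points on hnRNP and IgG, whereas Smad3 and Smad7 are above the floor on all 4 arrays.

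The series ranked transcripts in the Msi1 precipitate over IgG. In that comparison the type I receptors Tgfbr1 and Bmpr1a were higher by 2.92 and 2.69 log2 units, and none of the 10 genes was 2-fold lower. A gene counted as detected when its signal passed the floor of either array. Of the 7 genes so detected, Msi1 exceeded IgG by 2-fold or more for 2. Among all 10360 detected genes, 18.6% were higher by this measure and 6.91% were lower. With 7 genes, 2 is too small a number to set apart from that share. The median difference of the 7 was 0.54, that of all 10 genes was 0.33 and that of all detected genes was 0.06. Of the 7, only Smad3 and Smad7 passed the IgG floor, and the others were detected through the Msi1 array alone. The median of the 7 thus rests mostly on genes kept for their Msi1 signal, and it is not read as a shift.

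Tgfbr1 encodes the type I receptor for TGF-beta, also called ALK5. Its signal was 6.36 on the Msi1, 3.43 on the hnRNP, 3.44 on the IgG and 5.90 on the input array. It was well above the floor on Msi1 and input and far below it on both other precipitates, which differed from each other by 0.01. Against IgG it was at least 2.14-fold higher. Against hnRNP the difference was 2.93, at least 2.29-fold. Its Msi1 signal lay above its input signal by 0.46 (1.38-fold), and in the values as deposited no other of the 10 genes did so, though Bmpr1a and Smad7 did under other scalings described with the input comparison.

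Bmpr1a encodes a type I receptor for BMP ligands, also called ALK3. It read 6.99 on the Msi1, 3.58 on the hnRNP, 4.30 on the IgG and 8.08 on the input array. As with Tgfbr1, Msi1 was the only precipitate above the floor. The excess over IgG was at least 3.30-fold. Over hnRNP it was 3.41, at least 3.53-fold. Bmpr1a differed from input by −1.10 in Msi1 and by −3.79 in IgG.

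Acvr1, the remaining type I receptor (ALK2), responds to BMP ligands and activins bind it as well. Signals of 4.40 on the Msi1, 4.37 on the hnRNP and 4.97 on the IgG array were all below the floor, and the input signal was 5.23. Its differences from IgG (−0.57) and hnRNP (0.04) therefore lie within background.

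Tgfbr2 and Bmpr2, type II receptors that act upstream of the type I receptors in the complex, were not past 2-fold over IgG. Another type II receptor, Acvr2a, was 1.98 above IgG, at least 1.77-fold, and is described with the other pathway genes. Tgfbr2, the partner of Tgfbr1, had 4.34 on the Msi1, 5.08 on the hnRNP, 5.02 on the IgG and 5.94 on the input array. No precipitate reached the floor, and Msi1 was the lowest of the 3. With both values below the floor, its difference from IgG (−0.68) lies within background. Bmpr2, which pairs with Bmpr1a, read 5.0 on the Msi1, 4.11 on the hnRNP, 4.47 on the IgG and 8.23 on the input array. Its Msi1 signal was just above that array's floor but under the IgG floor, so the difference of 0.53 from IgG has no fold. In Msi1 it was 9.34-fold lower than in input.

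**Figure D2:**
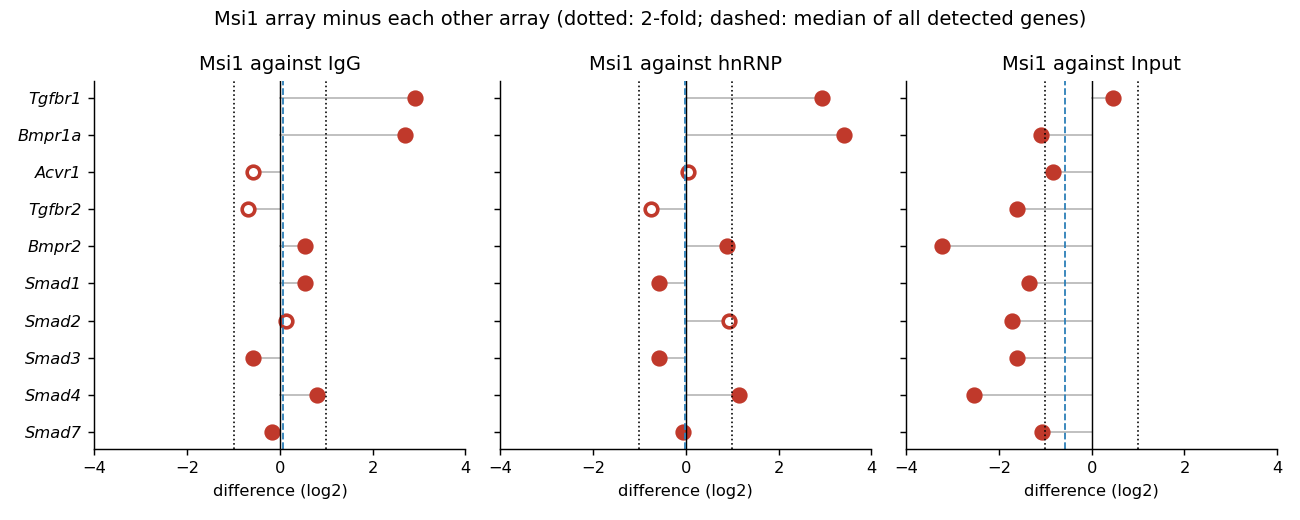
Difference of the Msi1 array from the IgG, hnRNP and input arrays (horizontal axes, log2 units) for each gene, from 1 array per group. Open points were below the floor on both arrays compared, dotted lines mark 2-fold and dashed lines the median of all detected genes. Tgfbr1 and Bmpr1a are past 2-fold over IgG and hnRNP, and 9 of the 10 genes lie below 0 against input in the values as deposited.

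Of the receptor-activated Smads Smad1, Smad2 and Smad3, none was 2-fold apart between Msi1 and IgG. Smad1, which carries BMP signals, had 5.10 on the Msi1, 5.67 on the hnRNP, 4.56 on the IgG and 6.45 on the input array. It was thus highest in the hnRNP precipitate, where it stood 1.48-fold above Msi1 (a Msi1 minus hnRNP difference of −0.57). The difference from IgG was 0.54, with an Msi1 signal that did not reach the IgG floor. Smad2, which carries TGF-beta and activin signals, read 4.55, 3.62 and 4.43 on the Msi1, hnRNP and IgG arrays, all below the floor, and 6.27 on input. Smad3, its close relative and a published Musashi target, read 5.58 on the Msi1, 6.15 on the hnRNP, 6.17 on the IgG and 7.19 on the input array. It was detected on every array and lowest on Msi1, at −0.59 from IgG and −0.57 from hnRNP, each about 1.5-fold. The SD of the Msi1 minus IgG difference over 1190 olfactory and vomeronasal receptor genes was 0.61, with a median of −0.38. The Smad3 difference is no larger than that SD. Most of those genes lie below the floor, unlike Smad3, so their scatter cannot decide whether its difference is noise. With 1 array per group the scatter at its signal is not known.

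Smad4, the partner shared by both branches, read 5.68 on the Msi1, 4.53 on the hnRNP, 4.88 on the IgG and 8.21 on the input array. Msi1 was the only precipitate in which it passed the floor. It was 0.80 above IgG, at least 1.33-fold, and 1.15 above hnRNP, at least 1.43-fold, so its excess over hnRNP is under 2-fold once the hnRNP value is raised to the floor. Smad7, the inhibitory Smad, read 5.67 on the Msi1, 5.74 on the hnRNP, 5.86 on the IgG and 6.75 on the input array. All were above the floor, and the 3 precipitates spanned 0.18 log2 units.

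**Figure D3:**
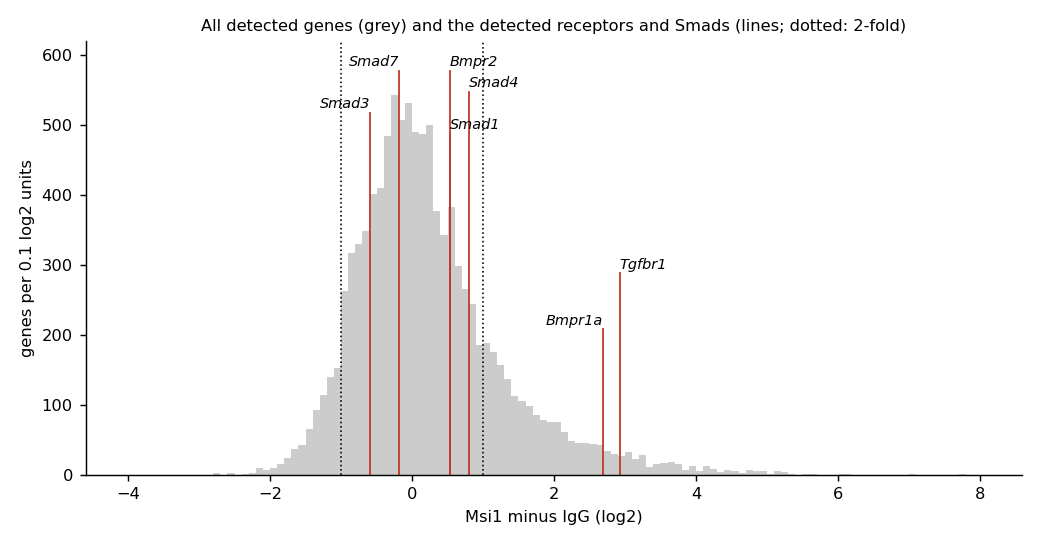
Number of genes (vertical axis, per 0.1 log2 units) by Msi1 minus IgG difference (horizontal axis) over 10360 detected genes, with red lines at the 7 detected receptor and Smad genes and dotted lines at 2-fold. Smad3, Smad7, Bmpr2, Smad1 and Smad4 fall in the body of the distribution, and Bmpr1a (2.69) and Tgfbr1 (2.92) in its upper tail, with IgG values below the floor.

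Msi1 was also compared with the other antibody. Past 2-fold over hnRNP were 3 of the 7 detected genes, Tgfbr1, Bmpr1a and Smad4, and 0 were lower. Of all 10658 genes detected there, 17.5% were higher and 7.79% lower. Tgfbr1 and Bmpr1a were thus past 2-fold over both IgG and hnRNP, as were 1451 of all 19937 genes. Neither was among the 128 of those genes that were also past 2-fold over input in the values as deposited. Tgfbr1 was past 2-fold over input with quantile normalization (1.09) and loess centring (1.73). These comparisons share the Msi1 array, so they are not independent of each other.

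Between the hnRNP and IgG precipitates only 3 of these genes were detected, and 1 of them, Smad1, was past 2-fold as deposited. Smad1 was 1.11 higher in hnRNP than in IgG, which is at least 1.32-fold with the IgG value at the floor, Smad3 differed by −0.02 and Smad7 by −0.11. The other 7 were below the floor on both arrays, so their differences lie within background. Over all 7912 genes detected in this comparison 6.27% were at least 2-fold higher in hnRNP and 4.51% lower.

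Against input RNA, 8 of the 10 genes were at least 2-fold lower in Msi1 and 0 were higher. Among all 12775 genes detected, 38.4% were lower and 11.8% higher, and the median was −0.57. Bmpr2 (−3.22) and Smad4 (−2.53) were the lowest. Smad2 differed by −1.72, Smad3 by −1.61, Tgfbr2 by −1.60 and Smad1 by −1.35, while Bmpr1a (−1.10), Smad7 (−1.08) and Acvr1 (−0.83) stood nearer to the median. In IgG against input, 7 of the 10 were lower (6, without Tgfbr1, once IgG values are raised to the floor) and 0 higher, where 44.7% of 12690 detected genes were lower and 16.6% higher, with a median of −0.71. Bmpr1a (−3.79), Bmpr2 (−3.76) and Smad4 (−3.34) had the lowest values there, all from IgG signals below the floor. With these raised to the floor the differences were −2.82, −2.96 and −2.95. Bmpr1a was nearer to input in Msi1 (−1.10) under either reading, whereas for Bmpr2 (−3.22 in Msi1) the order depended on it.

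The comparison with input depended on scaling. The median of all detected genes in Msi1 against input moved by 0.46 with quantile normalization and by 0.56 with loess centring. Bmpr1a then lay above input, by 0.21 and 0.63, and Tgfbr1 was past 2-fold over input, at 1.09 and 1.73. Smad7 differed by 0.25 with loess centring. In IgG against input the median moved by 0.37 and 0.71 under the same scalings, and Smad3 (0.44 and 1.41) and Smad7 (0.30 and 1.05) then lay above input in IgG. In Msi1 against IgG, where centring the arrays on their medians moved the median of all genes by 0.14, the differences kept their sign for each of the 7 detected genes under median centring, quantile normalization and loess centring. They did not under a raised floor: with values below an array's floor set to it, Bmpr2 (−0.26) and Smad1 (−0.17) were lower in Msi1 than in IgG, since the IgG floor is the higher one, while Tgfbr1 (1.10) and Bmpr1a (1.72) stayed past 2-fold. Over the scalings the differences spanned 2.86 to 3.39 for Tgfbr1 and 2.69 to 3.03 for Bmpr1a, and Smad4 reached 1.05 with quantile normalization.

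**Figure D4:**
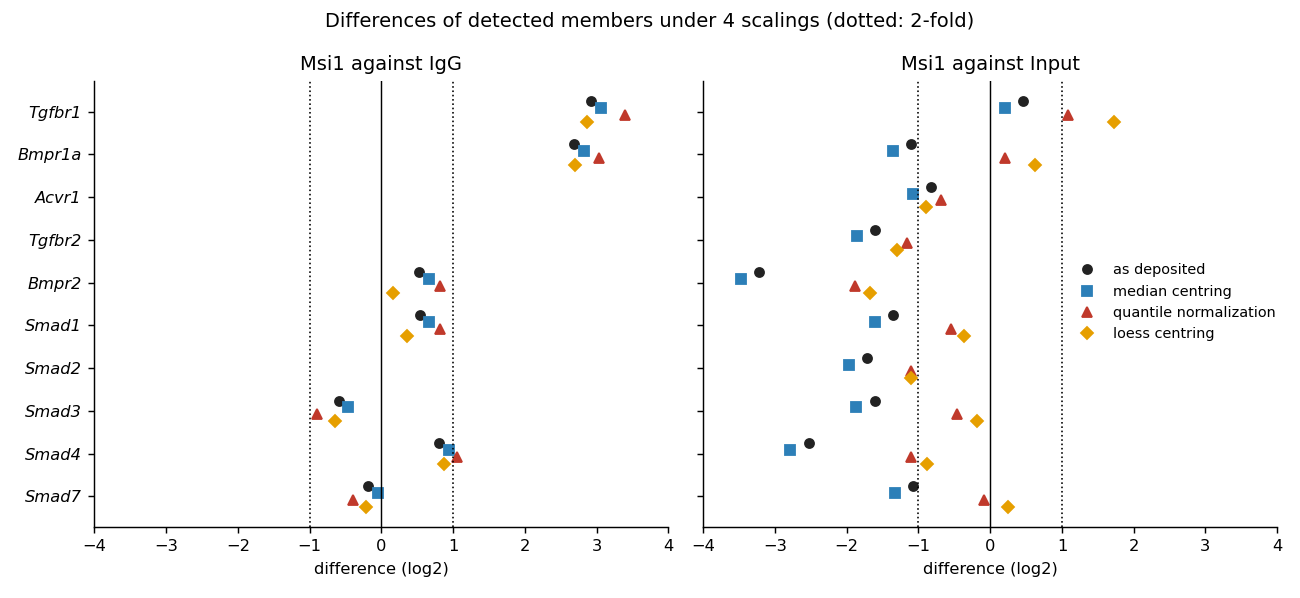
Difference (horizontal axes, log2 units) of Msi1 from IgG and from input for the receptor and Smad genes detected in each comparison, as deposited and after 3 other scalings, from 1 array per group. Dotted lines mark 2-fold. Against IgG, Tgfbr1 and Bmpr1a stay between 2.69 and 3.39, whereas against input Bmpr1a runs from −1.35 to 0.63.

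The other genes of the pathway were followed in 7 lists by role, with 108 genes on the arrays. Of the 80 detected in Msi1 or IgG, 18 (22.5%) were past 2-fold on the Msi1 side and 5 (6.25%) on the IgG side, near the shares of all genes, and their median difference was 0.13. With dim values raised to the floor, 8 were higher and 3 lower, and the median was −0.05, beside −0.2 for all detected genes. The share of all genes past 2-fold under that setting is not given here. Against hnRNP, 19 of 86 were higher and 9 lower, beside 17.5% and 7.79% of all genes. Against input, 6 of 85 were higher and 38 lower, beside 11.8% and 38.4% of all genes. Over median centring, quantile normalization and loess centring the number higher than IgG ran from 18 to 22 and the number lower from 4 to 9.

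Ligands had 0 of 10 detected genes higher and 2 lower, Tgfb3 (−1.20, at least 1.60-fold) and Bmp6 (−1.02, at least 1.49-fold), both under 2-fold once Msi1 is raised to its floor. Among all detected genes 18.6% were higher and 6.91% lower, and 10 genes are too few to set these counts apart from those shares. The highest were Bmp1 (0.42), a protease that processes procollagen despite its name, Bmp7 (0.31) and Bmp4 (0.17, or −0.08 with loess centring). Bmp6 was within 2-fold (−0.89) with median centring. Tgfb3 and Bmp6 were below the input floor, at 3.08 and 3.86. Extracellular antagonists and latency proteins had 0 of 11 higher, which is likewise too few genes to set apart from 18.6%. Dand5, an antagonist of Nodal, was 2.33-fold lower (−1.22). Ltbp2, a latent TGF-beta binding protein, differed by −0.87, or −1.07 with quantile normalization, and Twsg1, a BMP-binding protein, by 0.86. Thrombospondin 1 (Thbs1), an activator of latent TGF-beta, and follistatin (Fst), which binds activin, differed by 0.34 and 0.02.

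Of 9 other receptors and co-receptors detected, 2 were higher and 1 lower, beside 18.6% and 6.91% of all detected genes. Acvr2a, a type II receptor for activins and BMPs, read 6.09 on the Msi1, 3.99 on the hnRNP, 4.11 on the IgG and 6.01 on the input array, an order like that of Tgfbr1. It was 1.98 above IgG, at least 1.77-fold. The type I receptor Acvr1b, detected on both arrays, differed from IgG by 0.17. Neogenin (Neo1), a receptor for repulsive guidance molecules that act as BMP co-receptors, was 2.10 higher than IgG, at least 1.21-fold. Neither of these 2 was past 2-fold with the IgG value at the floor. Tgfbr3, the co-receptor betaglycan, was at least 2.02-fold lower (−1.16), and the BMP co-receptor hemojuvelin (Hjv) differed by −0.49. Among other Smads, Smad5, which like Smad1 carries BMP signals, was 1.40 higher than IgG, which is at least 1.46-fold and so under 2-fold against the floor. The inhibitory Smad6 differed by 0.47 and Smad9 by −0.04, a difference that changed sign with scaling.

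Regulators of receptors and Smads formed the list with the most genes past 2-fold, 11 of 23 higher and 0 lower, with a median of 0.87. Of all detected genes 18.6% were higher. Under the 3 scalings 10 to 13 of the regulators were higher and 0 lower. With dim values raised to the floor only 5 were higher, and the median was 0.21, beside −0.2 for all detected genes. The share of all genes past 2-fold under that setting is not given here. The highest was Ppp1cc, a catalytic subunit of protein phosphatase 1, at 3.32 above IgG (at least 7.76-fold), but its second probe set was at −1.77. Xiap, a ubiquitin ligase that also links BMP receptors to the kinase TAK1, was 2.42 higher, at least 2.80-fold. Ppm1a, a phosphatase reported to act on phosphorylated Smads, was 4.74-fold higher (2.24) with both values above the floor. At the other end, Hgs, an endosomal adaptor for Smad presentation to receptors, differed by −0.64 and the corepressor Tgif1 by −0.35. The ubiquitin ligases of the Nedd4 family that act on receptors and Smads, singled out after their values were seen, were divided. Wwp1 was 2.08 above IgG, at least 1.52-fold, and Smurf2 was 1.61 above it, at least 1.5-fold. Both were thus under 2-fold against the floor. The second Smurf2 probe set differed by 0.95, but it was below the floor on both arrays. Smurf1 differed by −0.28, and Nedd4l was below the floor on both arrays. In the same list 15 of 27 genes were at least 2-fold lower in Msi1 than in input and 1 was higher, beside 38.4% and 11.8% of all genes. These counts are from the values as deposited, and other scalings of them were not tried.

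Transcription partners of Smads had 2 of 11 higher, Sp1 (1.44, at least 2.32-fold) and the retinoblastoma relative Rbl1 (1.37, at least 1.14-fold), and 0 lower. Of all detected genes 18.6% were higher and 6.91% lower. The coactivator Crebbp differed by 0.99, at least 1.81-fold, and was past 2-fold under each of the 3 scalings (1.01 to 1.13). With its IgG value raised to the floor it was within 2-fold (0.85). Runx1 differed by −0.92, or −1.24 with quantile normalization, and Ncoa3 by −0.07, with a sign that changed with scaling. Target genes had 2 of 13 higher and 1 lower, counts near those same shares, with a median of −0.31. The TGF-beta-induced genes Tsc22d1 (1.61, at least 2.59-fold) and Cdkn2b, which encodes the cell cycle inhibitor p15 (1.42, 2.68-fold), were higher, and Snai1, a regulator of epithelial to mesenchymal transition, was 2.39-fold lower (−1.26). The collagen gene Col1a2 differed by −0.97, or −1.35 with quantile normalization, and the BMP-responsive Id4 by 0.66.

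**Figure D5:**
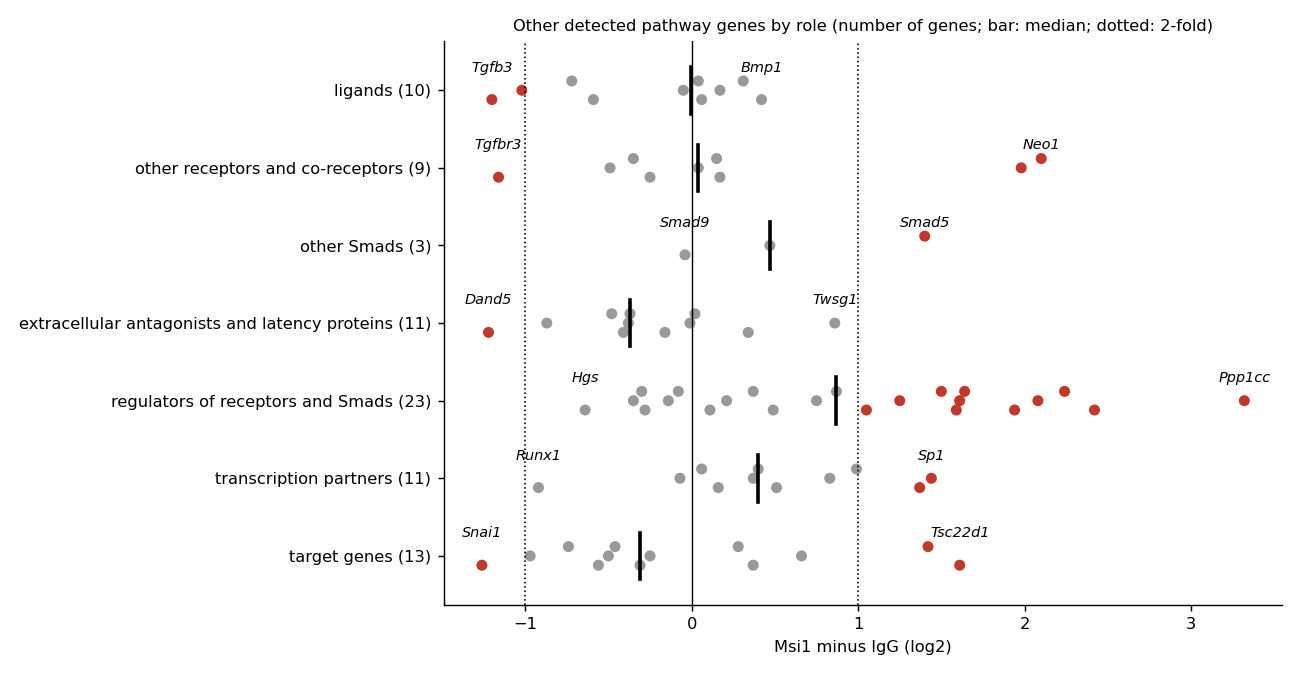
Msi1 minus IgG difference (horizontal axis, log2 units, 1 array per group) of the other detected pathway genes by role, with the number of genes in brackets. Points past 2-fold are red, black bars are medians, and the lowest and highest gene of each list is named. Regulators of receptors and Smads have 11 of 23 points past 2-fold on the higher side and ligands have 0 of 10, beside 18.6% of all detected genes. With dim values raised to the floor, 5 of the 23 regulators are higher. Ppp1cc, the highest regulator, has a second probe set at −1.77, which is not drawn.

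Marker genes were compared between the precipitates as well. In Msi1 against IgG all 13 epithelial markers were detected, with a median difference of 1.33 and a range of −0.99 to 4.56. Of the others, 6 of 11 stromal and muscle, 2 of 4 endothelial, 2 of 6 immune and 0 of 5 enteric neuron and glia markers were detected. Over all markers of these types the medians were −0.19, −0.57, −0.57 and −0.54. Differences of markers below both floors lie within background. The part of cell type in the differences of the receptors and Smads was not tested.

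The genes with signals most like those of the 3 published targets were found by Euclidean distance over the log2 signals of the 4 arrays, which describes likeness on 4 values only. Nearest to Tgfbr1 were Med21 (0.26), Ifit1bl2 (0.44) and Anapc10 (0.54). Nearest to Bmpr1a were Atad1 (0.33), Ccng1 (0.42) and Mgst1 (0.45), and nearest to Smad3 were Puf60 (0.09), Ap2a1 (0.12) and Ubtf (0.24). Med21, a Mediator subunit gene, read 6.43 on the Msi1, 3.56 on the hnRNP, 3.65 on the IgG and 5.90 on the input array. Puf60, a splicing factor gene, read 5.57, 6.11, 6.24 and 7.17 on the same arrays, lowest on Msi1 among the precipitates as was Smad3.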

How the data were processed

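The deposited log2 values, which the authors summarized to a single number for each probe set, were used unchanged. The tool affy is named in the submitters' processing notes. No source used here gives the background correction, the scaling or the log base, and values between 1.07 and 14.32 were read as base 2. Probe sets were named from the platform's annotation. Of 34760, 21640 had 1 symbol, 1321 several and 11799 none. For genes with several probe sets the brightest on average over all arrays stood for the gene, which affects none of the 10 members. Floors came from 1204 olfactory and vomeronasal receptor probe sets. Differences of log2 values were taken in 5 comparisons for genes past the floor of either array, and no test was possible. Members and lists were chosen with earlier results of these data known. Named pathway genes are the 3 highest and 2 lowest of each list. Of 115 symbols sought, 5 were not analysed here and 2 repeated a listed gene. The steps were tested on simulated arrays, all drawn from the input profile, with changes put only into genes above the IgG floor. Raised genes with IgG values below the floor, as for Tgfbr1 and Bmpr1a, were not simulated. Alternatives were 3 scalings (loess span 0.4), other floors and detection rules, 1.5-fold and 3-fold thresholds, other probe set choices and raised dim values. Python 3.11.15, pandas 2.3.3, numpy 2.4.6, statsmodels 0.14.6 and matplotlib 3.10.9 were used.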

Additional observations from a re-analysis of the deposited data

How the results depend on the processing

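No paired analysis was possible because each group had 1 array. Of 132 counts under 11 alternatives, 108 stayed within 1.5 times their value and 24 moved. Probe set choices could change no count of members, since each member was read by 1 probe set, and these counts are among the 108. In Msi1 against IgG, detection on both arrays left 0 members higher, since both IgG values lay below the floor, and 1.5-fold gave 1 lower (Smad3). In Msi1 against hnRNP, detection on both arrays left 0 higher. In Msi1 against input, quantile normalization gave 1 higher and 4 lower, loess centring 1 and 3, and the 3-fold threshold 5 lower. In hnRNP against IgG, 0 were higher with loess centring, the 99th percentile floor, detection on both arrays, 3-fold or dim values raised to the floor. In IgG against input, loess centring gave 2 higher (Smad3 and Smad7), and detection on both arrays 1 lower. Only the 3 scalings and raised dim values could change a member difference. The other alternatives altered detection, threshold or probe set choice alone. Of 394 member differences, which include those that could not change, 12 changed sign. For 5 of these the value was past 2-fold as deposited, namely Bmpr1a and Smad3 with quantile normalization (0.21 for Msi1 against input and 0.44 for IgG against input) and with loess centring (0.63 and 1.41), and Smad7 in Msi1 against input with loess centring (0.25). The other 7 were within 2-fold as deposited. They were Smad7 in IgG against input with quantile normalization (0.30) and loess centring (1.05), Smad7 in Msi1 against hnRNP with median centring (0.05), and, with dim values raised, Bmpr2 in Msi1 against IgG (−0.26) and hnRNP (−0.17), Smad1 in Msi1 against IgG (−0.17) and Acvr1 in IgG against input (0.03). Pathway genes higher in Msi1 than IgG numbered 3 with detection on both arrays, 11 at 3-fold and 8 with dim values raised. Those lower numbered 9 with quantile normalization, 2 with the 99th percentile floor, 2 with detection on both arrays, 12 at 1.5-fold, 0 at 3-fold and 3 with dim values raised. Where not stated, the cause was not tested. Signals near the floor limit every fold against IgG or hnRNP given here as a lower bound.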
